A study of Mus musculus with 36 samples.

Results

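The 9 genes described here are markers of megakaryocytes and platelets: Pf4, Ppbp, Itga2b, Gp1ba, Gp1bb, Gp5, Gp9, Gp6 and Treml1. They were taken by symbol from the deposited table of liver gene expression, which lists 21889 symbols, and all 9 were found in it. Platelets are small cell fragments without a nucleus that megakaryocytes shed into the blood, and they carry much of the RNA and protein of the cell they came from. Megakaryocytes grow from blood-forming stem cells under the hormone thrombopoietin, which the liver makes throughout life. In the mouse fetus the liver is itself a main site of blood formation, and that role passes to spleen and bone marrow around and after birth.

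The study sequenced RNA from whole livers of male C57BL/6J mice at 12 ages, to follow liver genes through development, with 3 mice at each age and 36 in all. The ages were GD17.5 (gestation, labelled day -2), birth (Day 0), Days 1, 3 and 5, then Days 10, 15 and 20, and later Days 25, 30, 45 and 60. The mice were untreated, each was sampled at only 1 age, and weaning fell between Days 20 and 25. Expression is given in FPKM, fragments scaled to the length of the transcript and the size of the library, so levels can be set side by side between genes per length of transcript.

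The table holds no fragment counts, so the depth of each library is not known from it directly. Its summed FPKM ranged from 353712 to 450597 over the 36 mice, with a median of 398421. The steps between the smallest values put the depth at about 84.5 M (1 M is 1e+06) fragments per library, from 74.8 to 100.06 M. That estimate is rough, because only 65.02% of those values fell close to whole fragments (within 0.1). Mice of the same age resembled each other over all genes, with a lowest correlation of 0.971 among the 36 pairs and a median of 0.988. The labelled tissue was checked against 7 hepatocyte genes, of which none was listed at 0 in all mice of any age. Alb, the most abundant of them, averaged 3272 FPKM in GD17.5 livers and 29902 FPKM in those of Day 60.

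In whole liver, fewer cells of a type and less RNA per cell cannot be told apart. Ages were compared by limma, using log2(FPKM + 1) values, a separate mean for every age and a spread estimated from all 36 mice, and a gene was called at a Benjamini-Hochberg adjusted p under 0.05. A gene was tested where its mean reached 1 FPKM in at least 1 age, which left 11149 genes. All 9 members passed through their early ages. At Day 60 their means lay between 0.00759 and 0.934 FPKM, and after Day 20 only Pf4 reached 1 FPKM again, at Day 30. Their counts are therefore a description of the course with age. The same holds for the gene lists set beside them, where a gene low at Day 60 passed the filter only through other ages. Adding 1 before the log also makes the log2 differences of genes this low smaller than the ratios of their FPKM.

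The summed expression of the 9 genes was 278.6 ± 22.9 FPKM (SD, n = 3) at GD17.5 and 354.9 ± 21.6 FPKM at Day 1. It was 223.6 FPKM at Day 3, 156.6 ± 16.5 FPKM at Day 5, 49.2 ± 11.02 FPKM at Day 10 and 8.66 ± 1.45 FPKM at Day 15. At Day 60 the sum was 2.70 ± 0.0626 FPKM. The sum was thus highest from GD17.5 to Day 1 and lowest after Day 15. Per day it dropped most in FPKM from Day 1 to Day 3, and most as a ratio from Day 10 to Day 15. By means, 7 members were highest at Day 1, and Gp6 and Treml1 were highest at Day 0. As a median over the members, expression at Day 1 was 126% of its GD17.5 level, with members between 80.8% and 156%. The median was 55.6% at Day 5 and 18.4% at Day 10, then 3.18% at Day 15, and it ended at 0.639% on Day 60.

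**Figure D1:**
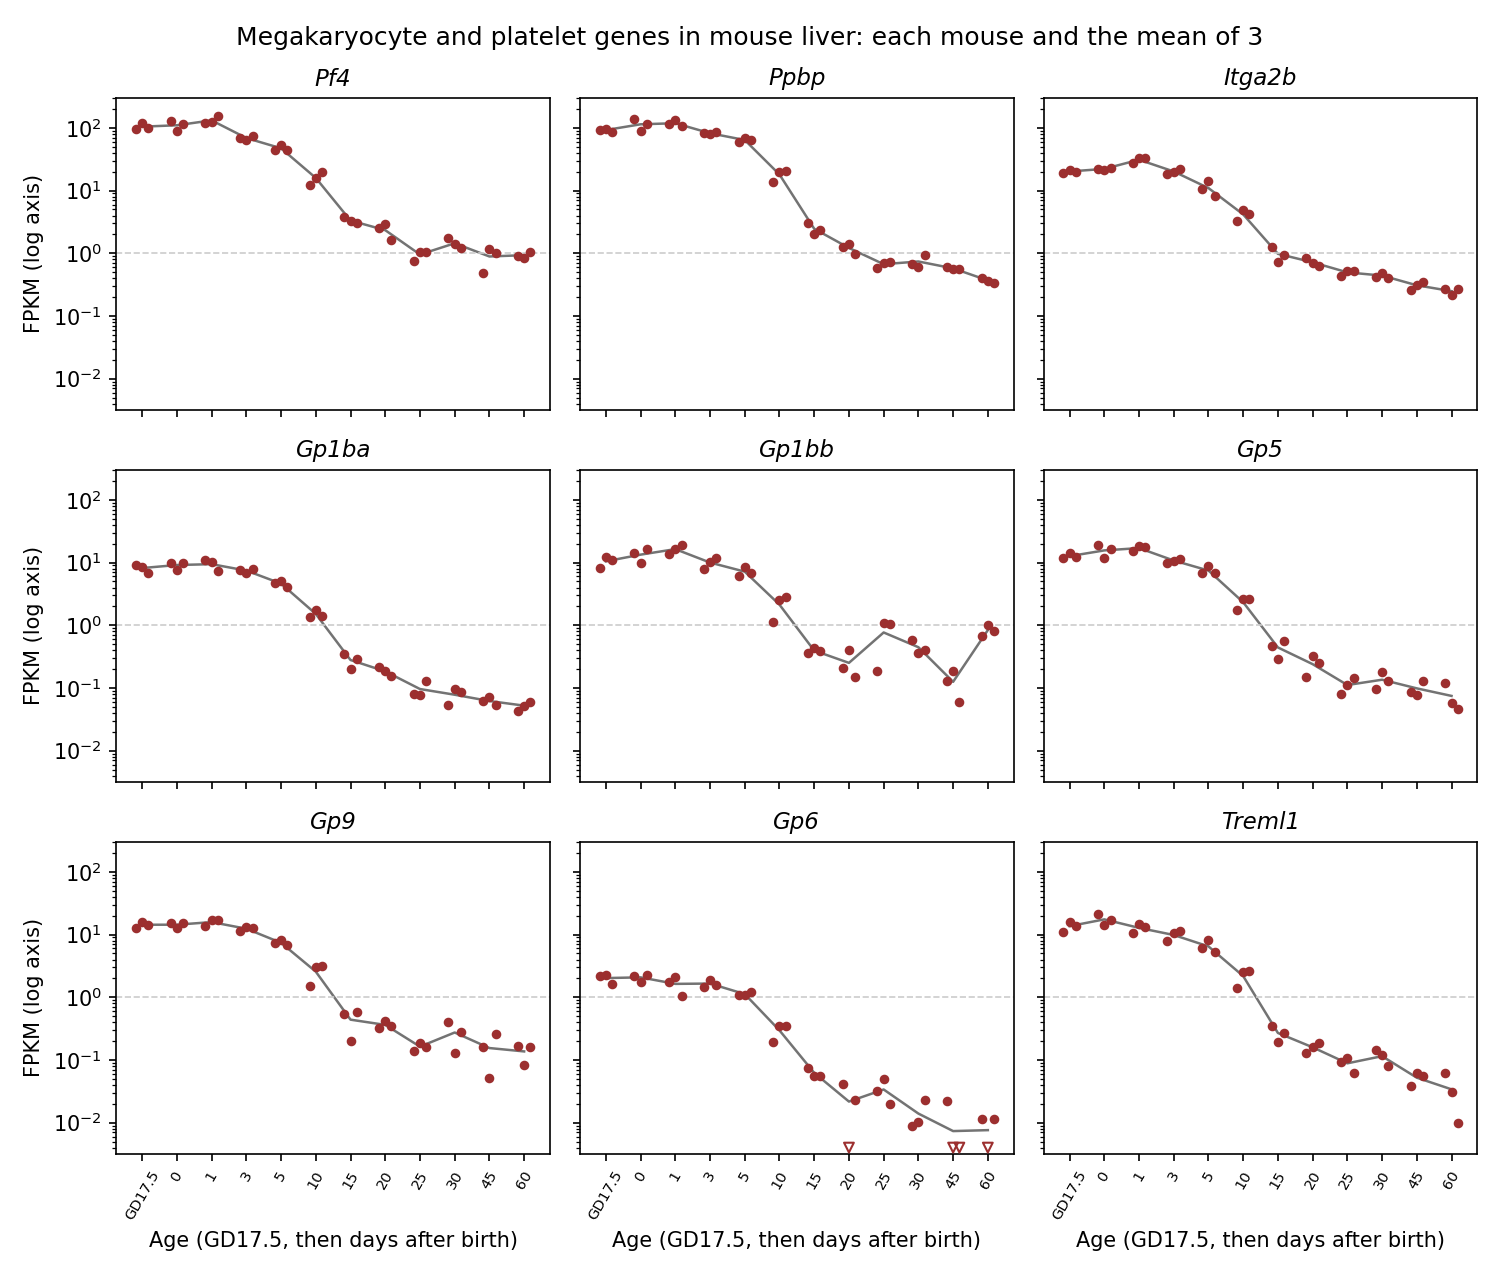
Expression of the 9 genes in each mouse (points, 3 per age) and the mean per age (line), in FPKM on a log axis, from GD17.5 to Day 60; the dashed line is 1 FPKM and open triangles at the bottom are values listed at 0. Every member falls between Days 5 and 15, and Gp1bb scatters at the late ages, with 0.186 to 1.08 FPKM among the 3 mice of Day 25.

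Pf4 encodes platelet factor 4, a chemokine that platelets store in alpha granules and release on activation. Its expression was 96.8, 119 and 98.5 FPKM in the 3 mice of GD17.5. At Day 0 the mice had 129, 88.2 and 114 FPKM, and at Day 1 they had 119.7, 122.5 and 153.5 FPKM. The range at Day 0 covered all 3 GD17.5 values, while the lowest mouse of Day 1 stood just above the highest of GD17.5. At Day 3 the values were 69.7, 63.5 and 73.8 FPKM, and at Day 5 they were 44.3, 53.3 and 44.3 FPKM. At Day 10 they were 12.2, 15.95 and 19.6 FPKM, followed by 3.74, 3.22 and 3.02 FPKM at Day 15. From Day 1 to Day 15 no mouse of an age reached the lowest mouse of the age before. The Day 20 mice had 2.51, 2.90 and 1.61 FPKM, and the Day 25 mice, after weaning, had 0.742, 1.06 and 1.06 FPKM. The values were 1.74, 1.39 and 1.204 FPKM at Day 30, 0.493, 1.16 and 1.01 FPKM at Day 45, and 0.898, 0.852 and 1.05 FPKM at Day 60. From Day 25 on Pf4 stayed near 1 FPKM, with Day 30 slightly above the other late ages. Its log2 expression at GD17.5 was 5.77 ± 0.17 (SE, n = 3 mice per age) above Day 60, with a limma adjusted p of 3.99e-22 and all 3 mice above all 3. In FPKM the ratio of the means was 112.

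Ppbp encodes pro-platelet basic protein, the precursor of chemokines such as CXCL7 that attract neutrophils. It was 94.1, 95.8 and 87.3 FPKM at GD17.5 and 140.03, 88.9 and 113.8 FPKM at Day 0. At Day 1 it was 116.8, 133.6 and 105.9 FPKM. Replicate 1 of Day 0 was the highest mouse of all for Ppbp, and replicate 2 of Day 0 lay inside the GD17.5 range. The mice of Day 5 had 59.1, 68.5 and 64.6 FPKM, those of Day 10 had 13.9, 19.7 and 20.6 FPKM, and those of Day 15 had 3.04, 2.01 and 2.33 FPKM. At Day 60 the values were 0.404, 0.363 and 0.341 FPKM. These 4 ages did not overlap with each other. Ppbp had the largest log2 difference among the members, 6.09 ± 0.14 (SE) between GD17.5 and Day 60 (limma adjusted p 4.12e-24), and a ratio of means of 250.2 in FPKM.

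Over all mice Pf4 and Ppbp were the most abundant members per length, although the mean of Gp1bb exceeded that of Ppbp at Days 25 and 60, and the ratio between them differed between ages. In the same mouse, Pf4 was 1.13 ± 0.106 times Ppbp (SD, n = 3) at GD17.5 and 0.738 ± 0.0474 times at Day 5. The ratio was 1.38 ± 0.201 at Day 15, 1.90 ± 0.193 at Day 20 and 2.55 ± 0.466 at Day 60. All 3 mice of Day 5 had more Ppbp than Pf4, and all 3 mice of Day 15, Day 20, Day 25, Day 30 and Day 60 had more Pf4 than Ppbp. Replicate 1 of Day 45 went the other way, with a ratio of 0.810. These differences were not tested.

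Itga2b encodes integrin αIIb (CD41), which pairs with integrin β3, the product of Itgb3, to form the platelet fibrinogen receptor; CD41 also marks early blood progenitors. Its values were 19.3, 21.3 and 19.9 FPKM in GD17.5 mice, 22.4, 20.9 and 23.2 FPKM at Day 0, and 27.3, 32.8 and 33.1 FPKM at Day 1. All 3 mice of Day 1 lay above all 3 of Day 0, and Itga2b was the 1 member higher in that step, where 23.7% of all tested genes were higher. The log2 difference was 0.46 ± 0.14 (SE), with a limma adjusted p of 0.0107, and it passed neither under upper quartile scaling of the libraries nor with only the mice of these 2 ages. At Day 5 the mice had 10.8, 13.99 and 8.17 FPKM, at Day 10 they had 3.25, 4.98 and 4.28 FPKM, and at Day 15 they had 1.27, 0.720 and 0.955 FPKM. At Day 60 they had 0.267, 0.213 and 0.267 FPKM, which is the lowest mean of any age for this gene. The fall again left no overlap between these ages. GD17.5 exceeded Day 60 by 4.08 ± 0.14 on the log2 scale (limma adjusted p 5.38e-21), a ratio of means of 81.1 in FPKM. Itgb3, its partner gene, fell less: Itga2b was 1.84 ± 0.547 times Itgb3 (SD, n = 3) per length at GD17.5 and 0.634 ± 0.151 times at Day 15. All 3 mice of GD17.5 had more Itga2b than Itgb3, and all 3 mice of Day 15 had less; the difference was not tested.

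Gp1ba, Gp1bb, Gp9 and Gp5 encode the 4 subunits of the GPIb-IX-V complex, through which platelets catch von Willebrand factor on a damaged vessel wall. Gp1ba carries the binding site for von Willebrand factor. It was 9.28, 8.55 and 6.70 FPKM in GD17.5 mice, 10.9, 10.05 and 7.40 FPKM at Day 1, and 1.37, 1.76 and 1.42 FPKM at Day 10. At Day 15 it was 0.348, 0.200 and 0.291 FPKM, and at Day 60 it was 0.0436, 0.0523 and 0.0608 FPKM. GD17.5 and Day 1 overlapped, and the 3 later ages stood apart from them and from each other. The log2 difference between GD17.5 and Day 60 was 3.11 ± 0.12 (SE; limma adjusted p 1.40e-19).

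Gp5 encodes glycoprotein V, the thrombin-cleaved subunit. Its expression was 11.7, 14.1 and 12.2 FPKM in GD17.5 mice, 15.4, 18.1 and 17.6 FPKM at Day 1, 1.73, 2.67 and 2.60 FPKM at Day 10, and 0.120, 0.0579 and 0.0466 FPKM at Day 60. Gp9 encodes glycoprotein IX, which the complex needs to reach the cell surface. It had 12.7, 16.2 and 14.2 FPKM in GD17.5 mice, 13.6, 16.96 and 16.9 FPKM at Day 1, 1.51, 2.99 and 3.18 FPKM at Day 10, and 0.168, 0.0832 and 0.159 FPKM at Day 60. In both genes Day 10 lay below every earlier mouse listed and above every mouse of Day 60. The log2 differences between GD17.5 and Day 60 were 3.66 ± 0.13 for Gp5 (limma adjusted p 5.31e-20) and 3.75 ± 0.15 for Gp9 (2.41e-19). Replicate 1 was the lowest of the 3 Day 10 mice for all 9 members, with a summed expression of 36.7 FPKM against 53.4 and 57.4 FPKM in the other 2.

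Up to Day 15 the subunits kept nearly the same proportions per length. Gp5 was 1.58 ± 0.289 times Gp1ba (SD, n = 3) at GD17.5, 1.54 ± 0.286 times at Day 10 and 1.59 ± 0.298 times at Day 15. Gp9 was 1.79 ± 0.380 times Gp1ba at GD17.5, 1.68 ± 0.568 times at Day 10 and 1.51 ± 0.494 times at Day 15. These means differ by less than the spread between mice. Later Gp9 scattered, at 4.14 ± 3.27 times Gp1ba at Day 30, 2.71 ± 2.08 times at Day 45 and 2.69 ± 1.13 times at Day 60, on an estimated 3.34 to 33.3 fragments of Gp9 per mouse, while Gp5 was at 1.54 ± 1.06 times at Day 60. Gp1bb kept to Gp1ba up to Day 20, at 1.32 ± 0.389 times at GD17.5, 1.52 ± 0.586 times at Day 15 and 1.37 ± 0.687 times at Day 20. Its ratio to Gp1ba was then 8.03 ± 5.73 at Day 25 and 6.45 ± 3.81 at Day 30, dropped to 1.95 ± 0.735 at Day 45, and was 16.1 ± 3.07 at Day 60.

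**Figure D2:**
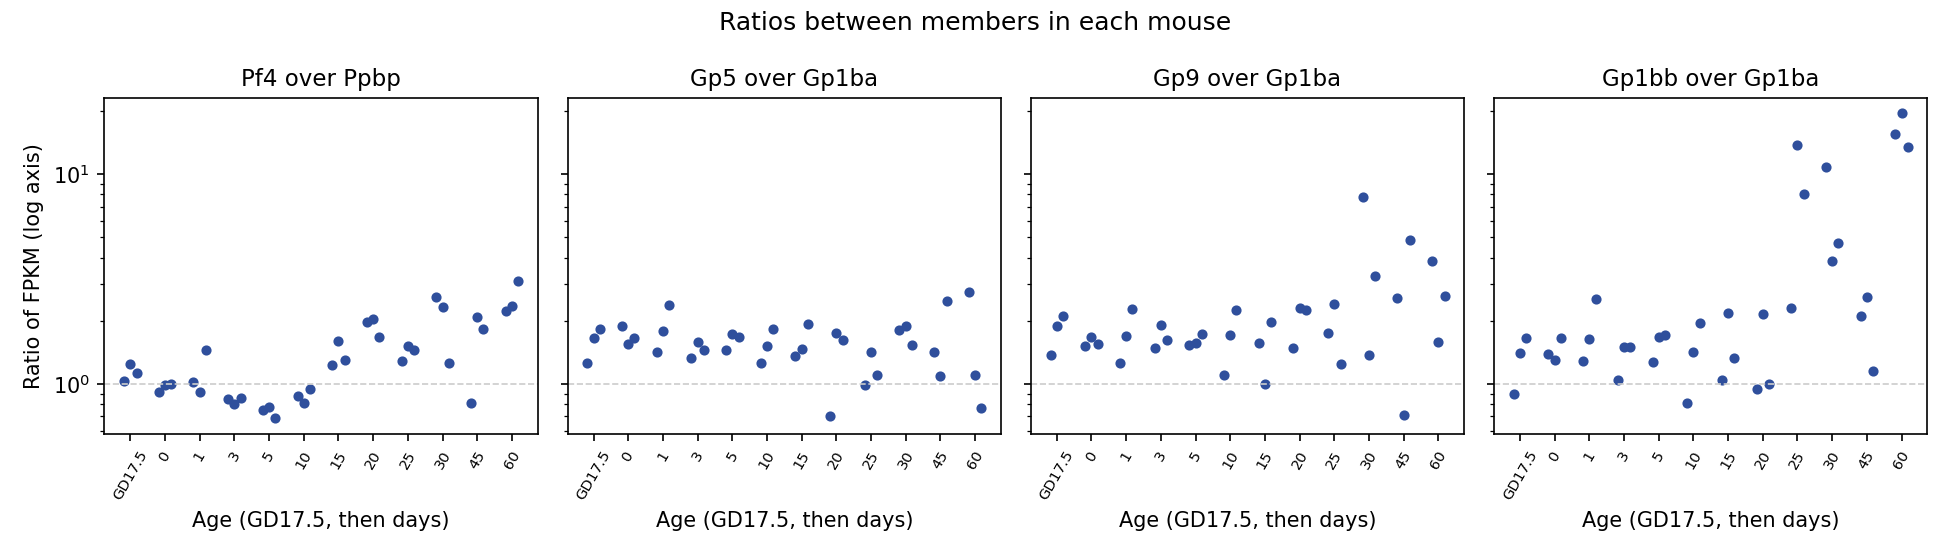
Ratio of FPKM between pairs of members in each mouse (points, 3 per age), on a log axis, from GD17.5 to Day 60; the dashed line is a ratio of 1. Gp5 and Gp9 stay at similar multiples of Gp1ba up to Day 15, Pf4 over Ppbp is lowest at Day 5, and Gp1bb over Gp1ba reaches 13.4 to 19.5 at Day 60.

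Gp1bb encodes the β chain of GPIb, which is bound to the α chain by disulfide bonds. It was 8.28, 12.1 and 11.1 FPKM in GD17.5 mice, 13.9, 16.4 and 18.9 FPKM at Day 1, and 1.11, 2.51 and 2.78 FPKM at Day 10. At Day 20 it had fallen to 0.205, 0.397 and 0.152 FPKM. The late ages then scattered: 0.186, 1.08 and 1.04 FPKM at Day 25, 0.130, 0.185 and 0.0605 FPKM at Day 45, and 0.676, 1.02 and 0.818 FPKM at Day 60. Its values at Day 60 lay above those of all 3 mice of Days 15, 20, 30 and 45, unlike those of the other 8 members. The annotation of the build used for mapping (mm9) places the 3′ end of the neighbouring gene Sept5 over 593 bases of Gp1bb on the same strand. Fragments there can be counted for either gene, so the values of Gp1bb carry, at every age, an uncertainty of assignment that the other members lack. Sept5 itself had 3.60, 6.56 and 5.37 FPKM at GD17.5. It had 0.811, 0.137 and 0.282 FPKM at Day 25, in the opposite order of mice to Gp1bb, and 0.0676, 0.115 and 0.231 FPKM at Day 60. The part of Sept5 in the early or late values of Gp1bb was not tested. GD17.5 exceeded Day 60 by 2.63 ± 0.21 (SE) in log2 expression of Gp1bb (limma adjusted p 3.62e-12).

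Gp6 encodes glycoprotein VI, the platelet collagen receptor, which signals through the Fc receptor γ chain made from Fcer1g. It was the lowest member per length, at 2.19, 2.24 and 1.65 FPKM in GD17.5 mice, 1.07, 1.10 and 1.1995 FPKM at Day 5, and 0.190, 0.346 and 0.352 FPKM at Day 10. These 3 ages did not overlap. Gp6 was listed at 0 in 1 mouse of Day 20, in 2 mice of Day 45 and in 1 mouse of Day 60. The other mice of Day 60 had 0.0113 and 0.0114 FPKM, which is about 1 fragment each by the estimated depth, so no ratio of FPKM to Day 60 is given. The log2 difference between GD17.5 and Day 60 was 1.58 ± 0.11 (SE; limma adjusted p 5.73e-14).

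Treml1 encodes TLT-1, a receptor stored in the granules of platelets and brought to their surface on activation. It was 11.1, 16.1 and 13.7 FPKM in GD17.5 mice, 21.1, 14.1 and 17.2 FPKM at Day 0, and 10.6, 14.8 and 13.03 FPKM at Day 1. Replicates 1 and 3 of Day 0 lay above all mice of the other 2 ages, and replicate 2 lay among them. Treml1 was the 1 member lower at Day 1 than at Day 0, where 7.88% of all tested genes were lower. The log2 difference was -0.42 ± 0.16 (SE) with a limma adjusted p of 0.0474, and this call is fragile. With 1 mouse left out, the count of members lower in this step ran from 0 to 2 and moved in 26 of 36 cases, and it was 0 without replicate 1 of Day 0. At Day 10 the mice had 1.38, 2.57 and 2.59 FPKM, and at Day 60 they had 0.0612, 0.0308 and 0.00998 FPKM. Day 10 again lay between the earlier and the adult mice without overlap. The log2 difference between GD17.5 and Day 60 was 3.81 ± 0.16 (limma adjusted p 1.31e-18). By the estimated depth the Day 60 values rest on about 6.24, 3.16 and 0.997 fragments, so no ratio of FPKM is given here either.

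Each age was compared with Day 60, the adult age the study used as its reference. All 9 members were called higher at GD17.5, with a median log2 difference of 3.75 (1.58 to 6.09), against 0.56 over all tested genes, of which 56.4% were higher and 18.6% lower. All 9 were also higher on the days that followed: Day 0 (43.6% of all tested genes higher), Day 1 (53.4% likewise), Day 3 (55.7%), then Day 5 (56.9%) and last Day 10 (35.3%). At Day 15, 4 members were higher (Pf4, Ppbp, Itga2b and Gp5), beside 18.4% of all genes, and at Day 20, 3 were (Pf4, Ppbp and Itga2b), beside 8.93%. From Day 25 on limma called 0 members higher than at Day 60. The share of all genes called higher was 4.18% at Day 25, 1.77% at Day 30 and 0.0628% at Day 45. At an unadjusted p under 0.05 the members higher were 0 at Day 25, 1 at Day 30 and 0 at Day 45. Even so, all 3 mice of Day 25 lay above all 3 of Day 60 for 5 members (Ppbp, Itga2b, Gp1ba, Gp6 and Treml1), as for 13% of all genes. At Day 30 this held for 4 members (Pf4, Ppbp, Itga2b and Treml1), beside 9.81%, and at Day 45 for Ppbp alone, beside 2.32%. Gp1bb went the other way, with all 3 mice below all 3 of Day 60 at Days 15, 20, 30 and 45. The shares of all genes below in this way were 14.7%, 17.3%, 11.9% and 21.6%. At an unadjusted p under 0.05 (limma) Gp1bb was lower at Days 20 and 45, but it was not called after adjustment. A pseudocount of 0.1 in place of 1 called 8 members higher at Day 15 and 7 at Day 20, and it called 2 at Day 25 and 2 at Day 30. No share of all genes is given for that pseudocount or for the unadjusted p, so those counts describe the members alone. The shares of all genes show that a higher level before Day 10 was common in this tissue, and the members' log2 differences were larger than the median gene's.

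The steps between neighbouring ages place the fall. From GD17.5 to Day 0 limma called 0 members higher and 0 lower, beside 13.1% and 41.4% of all tested genes, and 1 member was higher and 0 lower at an unadjusted p under 0.05. Without replicate 2 of Day 0, 3 members were higher, and without replicate 2 of GD17.5, 1 was. At Day 3, 5 members (Pf4, Ppbp, Itga2b, Gp1bb and Gp5) were lower than at Day 1, where 3.09% of all genes were lower. Without replicate 2 of Day 1, or without replicate 2 of Day 3, 3 members were, and with a pseudocount of 0.1 only 2. At Day 5, 4 members (Itga2b, Gp1ba, Gp5 and Gp9) were lower than at Day 3, beside 2.12% of all genes, but with only the mice of these ages 0 were. At Day 10 all 9 were lower than at Day 5, beside 34.4%, with a median log2 difference of -1.27 against -0.31 over all genes. At Day 15, 8 members were lower than at Day 10, beside 10.5% of all genes, with a median of -1.28 against -0.12. Gp6 had an adjusted p of 0.0773 (limma) in that step, although its 3 mice of Day 15 lay below the 3 of Day 10.

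After Day 15 few steps were called on the log2(FPKM + 1) scale, although the summed members still went from 8.66 to 5.49 and 3.38 FPKM over Days 15, 20 and 25. At Day 20 limma called 1 member lower than at Day 15, Ppbp, by -0.64 ± 0.14 (SE) on the log2 scale with an adjusted p of 0.0134, beside 1.16% of all genes. Without replicate 1 of Day 15, or without replicate 3 of Day 20, 0 members were called. Across weaning, Pf4 was the 1 member lower at Day 25 than at Day 20, by -0.76 ± 0.17 with an adjusted p of 0.00391 (limma), beside 3.26% of all genes. With only the mice of these ages 0 members were lower, and without replicate 1 of Day 25, 1 member was higher. All 3 mice of Day 25 lay below all 3 of Day 20 for 7 members (all but Gp1bb and Gp6), as for 16.5% of all tested genes. The same 7 had all 3 mice of Day 60 below all 3 of Day 20, beside 24.6%. Limma called 0 members lower at Day 30 than at Day 25, beside 0.807% of all genes and 0 members at an unadjusted p under 0.05. It called 0 lower at Day 45 than at Day 30, beside 0.798% of all genes and 1 member unadjusted.

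The study joined its ages into an early, a middle and a late group. In the 5 ages from GD17.5 to Day 5 all 9 members were higher than in the 4 ages from Day 25 to Day 60, beside 70.2% of all tested genes. Their median log2 difference was 3.53 (1.39 to 5.87), against 0.54 over all genes. In the 3 ages from Day 10 to Day 20, 8 members were higher than in the late group, beside 44.9% of all genes. There the median was 0.68 (0.14 to 1.73) against 0.19. Gp1bb was the member not called, with a limma adjusted p of 0.111.

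How the libraries are scaled decides the sign of the members' difference between GD17.5 and Day 0. Globin genes made up 36.2%, 38.7% and 43.1% of the summed FPKM in the 3 mice of GD17.5 and 16.3%, 19.8% and 18.2% in those of Day 0. With libraries scaled to their sum without the 7 globin genes, a choice made after seeing the data, 5 members were lower at Day 0, beside 64.4% of all tested genes, and their median log2 difference was -0.27. When upper quartiles of the libraries were made equal, 6 members were higher at Day 0, beside 20.1% of all genes, and the median was 0.39, and as deposited it was 0.15. The median over all tested genes moved along, at -0.29 as deposited, -0.08 with the upper quartile and -0.66 without globin. The members thus changed sign with the scaling but stood about equally far above the all-gene median each time. From Day 0 to Day 1 their median was 0.13 as deposited, -0.02 with the upper quartile and 0.06 without globin. Globin genes made up 6.12%, 8.11% and 8.34% of the summed FPKM in the 3 mice of Day 1. Day 1 was not compared with GD17.5 under these scalings, so the peak at Day 1 holds for the values as deposited. Between GD17.5 and Day 60 the median over all tested genes was 0.56 as deposited, 0.15 with the upper quartile and 1.02 without globin, while all 9 members were higher under each. Relative to that all-gene median, the members' own median of 3.75, 3.38 and 4.26 stood about equally far above it. From Day 5 to Day 10 all 9 members were lower under each of these scalings too.

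The members fell at similar speeds. Between Days 1 and 15, over 15 mice, log2 FPKM changed by a median of -0.374 per day over the 9 genes. Ppbp fell fastest, at -0.397 ± 0.0220 per day (SE), and Itga2b slowest, at -0.352 ± 0.0154. At the median speed the FPKM drops to 0.5 of its value in 2.67 days. The 9 neutrophil genes had a median of -0.425 per day, the 13 erythroid genes -0.322, the 6 B lineage genes -0.214 and the 8 Kupffer cell genes -0.0733. The members' speeds lay close together, between those of the neutrophil list, which ran from -0.511 to -0.402, and those of the B lineage list, while the erythroid genes ran from -0.624 to -0.0331. These slopes were not tested against each other.

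Over the 36 mice the 36 pairs of members had correlations of log2(FPKM + 1) of at least 0.960, with a median of 0.988. All points share the course with age, so this says little beyond that course. After the mean of each age was taken away, the correlations over the 18 mice of GD17.5 to Day 10 ran from 0.0426 (Pf4 with Gp6) to 0.907, with a median of 0.679. No pair was below 0. Gp5 with Treml1, and Gp1bb with Gp9, were the pairs most alike within ages, at 0.907 each. The lowest values were those of Gp1ba and Gp6 with other members: Gp1ba had 0.112 with Gp1bb and 0.137 with Gp9, and 0.671 with Gp6. What made mice of 1 age differ from each other was not tested.

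Beyond the members, 15 transcription factors of the megakaryocyte line were listed, and 12 of them were tested. All 12 were higher at GD17.5 than at Day 60, with a median log2 difference of 2.88, beside 56.4% and 0.56 over all tested genes. With upper quartile scaling 10 were, beside 40.7%. Here and in the lists that follow, genes low at Day 60 were tested only because another age was higher. The counts are thus descriptions, as for the members. Gata1, the lead factor of megakaryocytes and red cells, had means of 90.4 FPKM at GD17.5, 21.6 FPKM at Day 1, 2.19 FPKM at Day 10 and 0.00745 FPKM at Day 60. The log2 difference between GD17.5 and Day 60 was 6.50 ± 0.15 (SE; limma adjusted p 3.38e-24). Nfe2, needed for platelet release, went from 184.7 to 0.780 FPKM, a log2 difference of 6.74 ± 0.19 (limma adjusted p 1.40e-22). Gfi1b, a transcriptional repressor active in both lines, went from 48.7 FPKM to 0 in all mice (5.63 ± 0.15, limma adjusted p 6.14e-23). Zfpm1, the GATA1 partner FOG-1, went from 126.0 to 14.6 FPKM (3.03 ± 0.17, adjusted p 1.41e-15). At Day 0, 9 of the 12 were lower than at GD17.5, with a median of -0.80, beside 41.4% and -0.29 for all tested genes, and Gata1 fell by 1.11 ± 0.15 (limma adjusted p 8.72e-07) while no member was called lower as deposited. The count was 8 with upper quartile scaling, beside 26% of all genes, and 11 without globin, beside 64.4%, where 5 members were lower too. At Day 1, in FPKM as deposited, Gata1 and Nfe2 (47.0 FPKM) were well below their GD17.5 means while 7 members were at their highest. The 13 erythroid genes had a median of 17.2% of the GD17.5 level at that age. The part of red cells in the course of Gata1 and Nfe2 was not tested. Not every factor was lower then. The median over the 12 was 45.2% of the GD17.5 level at Day 1, with factors between 18.96% and 160.8%.

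Of 9 genes of the thrombopoietin axis, all tested, 5 were higher at GD17.5 than at Day 60 and 3 lower, beside 56.4% and 18.6% of all tested genes. With upper quartile scaling 4 were higher and 4 lower. Thpo, the hormone itself, stayed between 2.05 FPKM (GD17.5) and 4.65 FPKM (Day 10) on average. Its small difference at GD17.5, -0.32 ± 0.13 (limma adjusted p 0.0263), changed sign without globin and was then not called. Jak2, a kinase of cytokine signalling, was higher at GD17.5 by 1.46 ± 0.28 (limma adjusted p 2.79e-05), at 4.70 FPKM against 1.01 FPKM. Socs3, an inhibitor of such signals, was higher by 0.97 ± 0.30 (limma adjusted p 0.00485), though not with upper quartile scaling. Stat5b was called in neither direction (0.03 ± 0.23, limma adjusted p 0.899), but lower with upper quartile scaling and higher without globin. Asgr1 and Asgr2 encode the hepatocyte receptor that clears aged platelets and prompts Thpo expression. Asgr1 averaged 2.29 FPKM before birth, already 150.4 FPKM on Day 0, and 285.0 FPKM in adults of Day 60, and Asgr2 rose from 20.9 to 91.7 FPKM between GD17.5 and Day 60. The hormone and these hepatocyte genes thus did not follow the members.

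Of 15 further surface receptors of platelets 10 were tested, and all 10 were higher at GD17.5 than at Day 60, with a median log2 difference of 2.06. The share of all tested genes was 56.4%, and with upper quartile scaling 9 receptors and 40.7% of all genes were higher. Of the 15 listed, 6 had a mean under 0.1 FPKM at Day 60, and genes this low there could be tested only through another age. Itgb3 had means of 11.7 FPKM at GD17.5, 16.2 FPKM at Day 1 and, by Day 60, 0.381 FPKM (log2 difference 3.16 ± 0.17, limma adjusted p 5.74e-16). F2rl2, the thrombin receptor PAR3, went from 5.79 to 0.0324 FPKM (2.71 ± 0.10, adjusted p 1.71e-19). Fcer1g, the signalling partner of Gp6, went from 64.4 to 11.5 FPKM (2.38 ± 0.23, adjusted p 1.59e-10), and it is also made by macrophages and mast cells. Cd9, a tetraspanin of many cell types, went from 29.1 to 5.54 FPKM (2.23 ± 0.23). Esam, an adhesion molecule shared with endothelium, differed by 0.56 ± 0.12, and with upper quartile scaling it was not called.

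Of 15 granule genes listed, 13 were tested, 9 were higher at GD17.5 and 3 lower, with a median of 0.70. Over all tested genes the shares were 56.4% and 18.6%, with a median of 0.56, so the granule genes as a list lay near the other genes. Thbs1, thrombospondin 1, went from 9.78 to 0.0949 FPKM between GD17.5 and Day 60 (3.28 ± 0.20, limma adjusted p 6.93e-15). Tgfb1 went from 60.7 to 6.01 FPKM (3.14 ± 0.14, limma adjusted p 8.60e-18) and Srgn, the granule proteoglycan, from 38.4 to 4.35 FPKM (2.88 ± 0.22, 1.20e-12). Both are expressed in other blood cells as well. Clu, clusterin, rose from 23.7 to 709.7 FPKM (-4.85 ± 0.17, limma adjusted p 1.31e-20), and F5, coagulation factor V, from 3.57 to 23.8 FPKM (-2.48 ± 0.48, 3.37e-05). Hepatocytes also make both of these proteins. Selp, P-selectin, was lower at GD17.5 by a log2 difference of -0.25 ± 0.10 (limma adjusted p 0.0256), which was not called without globin. Sparc was higher by 0.57 ± 0.25 (limma adjusted p 0.0411), and with upper quartile scaling its sign flipped and it was not called.

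Of 16 listed genes of the platelet cytoskeleton and signalling, 14 were in the table, as Bin2 and Syk were not found. All 14 were tested and higher at GD17.5 than at Day 60, with a median of 2.49, beside 56.4% of all genes. With upper quartile scaling 12 were, beside 40.7%. Tubb1, the tubulin of the platelet's marginal band, had means of 11.5 FPKM at GD17.5, 13.1 FPKM at Day 1, 1.88 FPKM at Day 10 and 0.0700 FPKM at Day 60 (3.54 ± 0.12, limma adjusted p 1.14e-20). Fermt3, which encodes kindlin-3, an activator of integrins in blood cells, went from 57.9 to 1.23 FPKM (4.73 ± 0.16, limma adjusted p 1.23e-20). Flna (filamin A, 36.99 to 3.999 FPKM) and Tln1 (talin 1, 39.8 to 6.56 FPKM) are expressed in most cells and fell less, with log2 differences of 2.92 ± 0.30 and 2.41 ± 0.23.

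By the likeness of their course over the 36 mice, measured as the correlation of log2(FPKM + 1) with the mean of the standardised members, Tubb1 came closest at 0.994. AU023871 (0.994), Alox12 (0.994), Chst12 (0.992), Pstpip1 (0.991), Rhof (0.991), Mpo (0.991), Napsa (0.991), Def6 (0.991) and Ctsg (0.991) followed. Tubb1 and Alox12, the platelet lipoxygenase, were on the lists above, and Mpo and Ctsg are on the neutrophil list. Of 11140 other genes, 472 had a correlation above 0.95, so a course of this kind was shared by many genes.

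Other cell types moved at the same ages. All 13 tested erythroid genes, of 15 listed, were higher at GD17.5 than at Day 60, with a median log2 difference of 6.69, beside 56.4% of all tested genes. Their summed expression was 142456 to 196335 FPKM in the mice of GD17.5, 23997 to 34873 FPKM at Day 1 and 690 to 792.5 FPKM at Day 60, with Hba-a1 the most abundant. At Day 0, 12 of the 13 were lower than at GD17.5, beside 41.4% of all genes. With upper quartile scaling 9 were, beside 26%, and without globin all 13 were, beside 64.4%. The 9 neutrophil genes, led by S100a8, were all higher at GD17.5 than at Day 60 too (median 7.72). Their sum was 1898 to 3610 FPKM in GD17.5 mice, 2506 to 3160 FPKM in Day 1 mice, 296.6 to 681 FPKM in Day 10 mice and 1.40 to 2.76 FPKM in Day 60 mice. At Day 1, 5 of the 9 were lower than at Day 0, with a median log2 difference of -0.84, beside 7.88% of all tested genes, and their levels ran from 58.3% to 119% of GD17.5. All 9 were lower at Day 10 than at Day 5, beside 34.4% of all genes, and lower at Day 15 than at Day 10, beside 10.5%. At Day 60 their median stood at 0.0364% of GD17.5, against 0.639% for the members. No gene of either list was at 0 in all mice of an age. The part of these cells in the members' course was not tested.

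**Figure D3:**
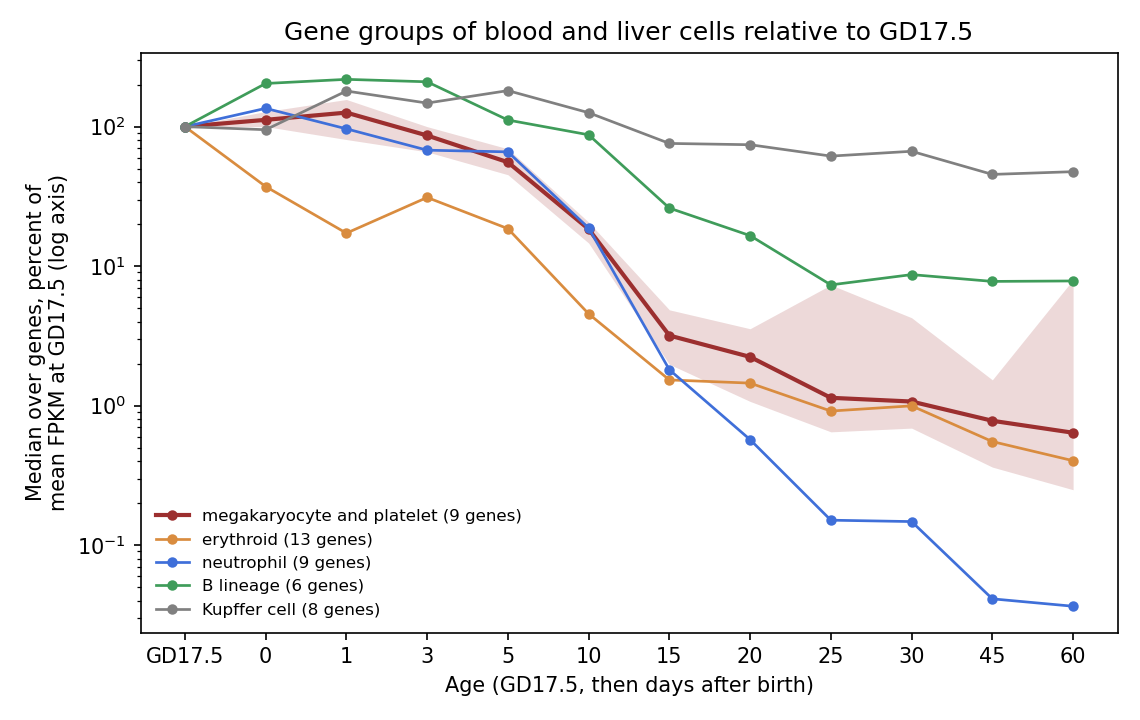
Median over the genes of each list of the mean FPKM as a percent of the GD17.5 mean (log axis) at each age, for the 9 members, with their range shaded, and for erythroid, neutrophil, B lineage and Kupffer cell genes. In FPKM as deposited, the median at Day 1 is 126% for the members, 96.4% for the neutrophil genes and 17.2% for the erythroid genes. At Day 60 the members are at 0.639% and the Kupffer cell genes at 47.5%.

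The remaining lists were given the same comparison between GD17.5 and Day 60, where 56.4% of all tested genes were higher and 18.6% lower. For B lineage cells 6 of 7 genes were tested and 6 were higher (median 2.19, most abundant Cd79b, summed mean 32.7 FPKM before and 2.32 FPKM at Day 60). For T cells 3 of 5 were tested and 1 was higher (Lck), at a summed mean of 2.47 FPKM at the first age and 0.675 FPKM at Day 60. For mast cells and basophils 6 of 9 were tested and 4 were higher, led by Hdc at 3.31 FPKM at GD17.5, and for blood progenitors 4 of 8 were tested and 3 were higher. The progenitor gene not called was Hlf, the most abundant of them over all mice (log2 difference -0.30, limma adjusted p 0.280). Of 8 Kupffer cell genes 5 were higher and 2 lower, and C1qa, the most abundant over all mice, was not called (33.1 FPKM in the fetus and 25.5 FPKM at Day 60). Of 8 endothelial genes 4 were higher and 2 lower, with a median of 0.35 that flipped to -0.18 under upper quartile scaling (1 higher and 3 lower), and Clec4g, the most abundant, rose from 5.73 to 36.3 FPKM. All 7 hepatocyte genes were lower at GD17.5, with a median of -2.10. At Day 60, 2 B lineage genes and 3 mast cell and basophil genes were at 0 in all mice. The part of these cells was not tested.

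Genes of other tissues were found in part of the mice. The 6 skeletal muscle genes, led by Acta1, summed to 1227 FPKM in replicate 1 of Day 0, against 4.55 and 4.10 FPKM in the other 2 mice of that age. They summed to 84.1 FPKM in replicate 1 of Day 10, against 8.06 and 1.19 FPKM. The summed members were 372.5 FPKM in replicate 1 of Day 0, against 255.5 and 328.2 FPKM, so this mouse was the highest of its age. Replicate 1 of Day 10 was the lowest of its age, with 36.7 against 53.4 and 57.4 FPKM, and it also had the most pancreas RNA of that age (1137 FPKM). The 6 exocrine pancreas genes, led by Ctrb1, were found in more mice. They summed to at most 6.95 FPKM in GD17.5 mice, but to 432.6 to 4115 FPKM in those of Day 0, 140.5 to 903.7 FPKM in those of Day 1, 426.9 to 1028 FPKM in those of Day 3 and 296.5 to 3593 FPKM in those of Day 15. At 4 other ages they differed widely between mice, from 8.07 to 1017 FPKM (Day 5), 5.28 to 1137 FPKM (Day 10), 3.92 to 4842 FPKM (Day 20) and 9.13 to 3553 FPKM (Day 45). At Day 60 the sums were 15178, 4.55 and 4.49 FPKM, while the summed members of the 3 mice of Day 60 stayed between 2.65 and 2.77 FPKM. Of the muscle genes 5 were tested and 1 was higher at GD17.5 than at Day 60. Of the pancreas genes limma called 0 in either direction there, and 0 at an unadjusted p under 0.05. Their part in the members' values was not tested.

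In mm9, Ppbp lies at chr5:91197544-91199086 and Pf4 at chr5:91201461-91202407, both on the plus strand and next to each other. Cxcl5, on the other side of Ppbp, had a mean of only 0.0815 FPKM at GD17.5, so the neighbours did not share one level. Itga2b is at chr11:102314611-102331436 (minus), Gp1ba at chr11:70452624-70456328 (plus), Gp9 at chr6:87728130-87729756 (plus) and Gp6 at chr7:4320315-4349346 (minus). Gp1bb (chr16:18620412-18622496) and Gp5 (chr16:30307772-30310865) share a chromosome, both on the minus strand, and Treml1 is at chr17:48499241-48506499 (plus). The genes of the GPIb-IX-V complex thus sit on 3 chromosomes. Trem2, a macrophage receptor next to Treml1, had 2.15 FPKM in the fetus and 0.231 FPKM at Day 60 (log2 difference 1.34, limma adjusted p 3.37e-09). Pfn1, near Gp1ba, had 487.1 and 138.8 FPKM at those ages (1.78, limma adjusted p 1.64e-09). Of 9 tested neighbours within 10 kb that are not members, 6 were higher at GD17.5 than at Day 60, beside 56.4% of all genes: these 2, Sept5, Fam171a2, Gpatch8 and Rnf167. Slc25a11 near Gp1ba (0.17, limma adjusted p 0.219), Atp13a3 near Gp5 (-0.09, 0.834) and Rab43 near Gp9 (0.49, 0.0554) were not called. No member other than Gp1bb overlapped a gene of the table.

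All 9 members had a promoter in the RefSeq table of GRCm38.p6, and the 250 bases before each start were searched on both strands for the letters that 3 families of factors in this lineage bind. The GATA letters were AGATAA or AGATAG or TGATAA or TGATAG. The ETS letters were AGGAAG or AGGAAA or CGGAAG or CGGAAA, and the RUNX letters were TGTGGT. Letters of the GATA kind were found in 4 of the 9 members, beside 26.5% of all 32851 promoters in the table, and ETS letters in 8, beside 57.2%. RUNX letters were found in 1 member, Gp9, beside 14.05% of all promoters. Both GATA and ETS letters were in Gp1ba, Gp1bb, Gp5 and Gp6, beside 15.0%. A match is a description of the letters, and no match says only that they are absent from this window.

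Of the members with both kinds of letters, 3 are shown, Gp1ba and Gp5 for their 3 GATA matches each and Gp6 as the lowest member: Gp1ba (chr11:70638872-70639121, plus strand), Gp5 (chr16:30310782-30311031, minus strand) and Gp6 (chr7:4397745-4397994, minus strand). All are read 5′ to 3′ on the strand of the gene in GRCm38.p6, and the capitals mark the matches.
Gp1ba: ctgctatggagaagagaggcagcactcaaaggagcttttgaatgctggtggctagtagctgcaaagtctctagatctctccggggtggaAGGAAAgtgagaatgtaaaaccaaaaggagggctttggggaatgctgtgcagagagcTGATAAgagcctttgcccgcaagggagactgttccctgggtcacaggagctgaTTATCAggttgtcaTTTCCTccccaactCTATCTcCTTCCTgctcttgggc
Gp5: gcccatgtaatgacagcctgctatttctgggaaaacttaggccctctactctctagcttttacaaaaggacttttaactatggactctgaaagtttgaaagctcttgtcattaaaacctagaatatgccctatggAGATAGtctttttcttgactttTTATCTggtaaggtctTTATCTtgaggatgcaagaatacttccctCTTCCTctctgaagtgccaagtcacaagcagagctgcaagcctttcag
Gp6: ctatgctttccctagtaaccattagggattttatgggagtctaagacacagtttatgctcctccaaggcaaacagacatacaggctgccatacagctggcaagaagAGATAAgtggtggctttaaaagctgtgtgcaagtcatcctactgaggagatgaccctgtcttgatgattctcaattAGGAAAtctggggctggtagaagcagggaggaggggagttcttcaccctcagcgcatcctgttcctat
Gp1ba has 3 GATA and 3 ETS matches, Gp5 has 3 GATA and 1 ETS match, and Gp6 has 1 of each, the GATA match at -144 and the ETS match at -68 from the start.

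The promoters of Itga2b (chr11:102469884-102470133, minus strand), Pf4 (chr5:90772185-90772434, plus strand) and Ppbp (chr5:90768268-90768517, plus strand) are shown because these 3 genes had the highest mean expression per length over all mice and fell together, with no GATA letters in this window.
Itga2b: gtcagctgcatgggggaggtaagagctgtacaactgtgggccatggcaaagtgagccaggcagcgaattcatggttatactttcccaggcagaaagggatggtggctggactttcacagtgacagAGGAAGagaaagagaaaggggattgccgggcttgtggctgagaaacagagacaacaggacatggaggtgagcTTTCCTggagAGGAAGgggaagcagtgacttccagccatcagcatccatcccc
Pf4: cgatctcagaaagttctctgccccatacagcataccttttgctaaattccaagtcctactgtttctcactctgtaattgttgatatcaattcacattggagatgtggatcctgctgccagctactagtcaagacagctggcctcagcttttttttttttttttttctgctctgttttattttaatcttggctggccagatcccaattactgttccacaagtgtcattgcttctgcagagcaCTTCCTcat
Ppbp: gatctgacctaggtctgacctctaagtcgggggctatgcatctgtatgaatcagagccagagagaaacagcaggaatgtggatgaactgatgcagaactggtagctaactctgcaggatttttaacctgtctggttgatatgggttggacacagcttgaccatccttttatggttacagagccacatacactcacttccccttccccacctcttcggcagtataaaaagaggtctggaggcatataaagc
Itga2b has 3 ETS matches, Pf4 has 1, at -9 from the start, and Ppbp has none, so these letters were not shared by all 9 members.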

How the data were processed

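The deposited table holds 1 FPKM value per gene and mouse for 36 mouse livers, which the authors made by mapping reads to mm9 with TopHat 1.2.0 and estimating expression with Cufflinks 1.0.3. From it, log2(FPKM + 1) was fitted with limma 3.58.1 in R 4.3.3 (1 mean per age, variance trend), for the 11149 genes whose mean reached 1 FPKM at any age, with Benjamini-Hochberg adjustment within each comparison. All p-values concern separate mice. Tables and figures were made with Python 3.11.15, numpy 2.4.6, pandas 2.3.3 and matplotlib 3.10.9, and the fit was tested on simulated data. The members and lists were chosen with earlier results of these data known. Named genes were all 9 members; in each list of other megakaryocyte genes the 3 highest by mean, and the 3 with the largest called fall and rise from GD17.5 to Day 60; the most abundant gene of each other list; the 10 genes most alike; and neighbours within 10 kb. Alternatives were other pseudocounts, filters and scalings, a replicate block, no variance trend, fits on only the ages compared, and leaving out each mouse.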

Additional observations from a re-analysis of the deposited data

How the results depend on the processing

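All 9 members were higher than at Day 60 from GD17.5 to Day 10, and lower at Day 10 than at Day 5, under each of the 9 alternatives that could test them and without each of the 36 mice, except that Gp6 is not tested with the filter at 5 FPKM. Of 297 counts of members under the alternatives, 267 stayed within 1.5 times the reported one, and 80 of 80 log2 differences between GD17.5 and Day 60 kept their sign and call.

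With a pseudocount of 0.1, 8 members were higher than at Day 60 at Day 15 and 7 at Day 20, with 2 at Day 25 and 2 at Day 30. There 0 were lower in the step to Day 1, 2 to Day 3, 1 to Day 5 and 2 to Day 25 (median over members, GD17.5 against Day 60: 5.95). With no filter, 0 were lower in the step to Day 1. With a common upper quartile, 6 were higher at Day 0 than at GD17.5, 0 were higher and 2 lower in the step to Day 1, and 2 were lower at Day 25; the median was 3.38. With libraries scaled to a common sum (TPM), 7 were higher than at Day 60 at Day 15 and 5 at Day 20, with 2 at Day 25 and 1 at Day 30. There 0 were lower in the step to Day 1, 2 to Day 5 and 2 to Day 25, and the median was 4.70. Without globin, chosen after seeing the data, 5 were lower at Day 0 and 2 in the step to Day 1, and the median was 4.26. With only the mice of the ages compared, 7 were higher at Day 20 and 1 at Day 25. There 0 were higher and 0 lower in the step to Day 1, 3 lower to Day 3, and 0 to Day 5, Day 20 and Day 25. The replicate block, although nothing in the labels says that equal numbers belong together across ages, left 9 members higher at GD17.5 and the median at 3.75. After the mean of each age was taken away, mice of different ages with equal numbers correlated at a median of 0.126 over the tested genes. With other numbers the median was -0.048, and 19 of 36 libraries were closest to their own number. Shares of all genes are given above for only some of these settings, so the other counts describe the members alone. The cause of the moves between settings was not tested.

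Leaving out 1 mouse gave 0 to 3 members higher at Day 0 than at GD17.5 (3 without replicate 2 of Day 0, 1 without replicate 2 of GD17.5), 0 to 2 lower in the step to Day 1, which moved in 26 of 36 settings, and 3 to 5 lower to Day 3. It gave 0 to 1 lower to Day 20 and 0 to 1 higher to Day 25, the 1 without replicate 1 of Day 25. Against Day 60 it gave 3 to 5 at Day 15 and 2 to 3 at Day 20. The median ran from 3.67 to 3.83.

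Depth limits what is seen late: Gp6 from Day 20 on, Treml1 at Days 45 and 60, and Gp9 in single mice of those ages rest on a few fragments. Gp1bb shares bases with Sept5, which concerns every age. The authors drew the mice of an age from several litters, but the litter of each mouse was not used here.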
